A study of Mus musculus with 30 samples.

Results

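Transcripts of 9 iron and zinc handling genes were followed in brain endothelial cells (ECs) that had been either isolated acutely or kept in primary culture. The genes were taken as a named list (Slc40a1, Slc11a2, Heph, Steap3, Fth1, Ftl1, Slc39a8, Slc39a10 and Slc30a1) out of 21820 protein-coding genes. Estimated counts and TPM (transcript abundance divided by transcript length and by library total) were summed over the transcripts of each gene in 14 RNA-seq libraries. ATAC-seq peaks, which mark open chromatin, were read at the same genes in 10 libraries.

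The acutely isolated cells came from adult male Tie2-GFP mice, whose ECs express GFP, and were sorted into 2 GFP-positive (EC) and 2 GFP-negative libraries that combine cerebrum and cerebellum. The 6 wild-type (WT) cultures were puromycin-purified brain ECs grown for 8 days, in 3 experiments of 2 wells each. Replicates 1 and 2 were C57BL/6J cells from isolation method A, whereas replicates 3 and 4 (150 cycles per read) and 5 and 6 (36 cycles, as in method A) were Ctnnb1flex3/+;Tie2-GFP cells from method B. The 4 beta-catenin stabilized cultures were Ctnnb1flex3/+;Pdgfb-CreER;Tie2-GFP cells read for 36 cycles, with replicates 1 and 2 from method A and 3 and 4 from method B. CreER was driven by the Pdgfb promoter and activated with 4-hydroxytamoxifen in pups, and it removes exon 3 of Ctnnb1, which gene-level sums cannot check. The controls with the flex3 allele carried it without Cre and had received 4-hydroxytamoxifen as well, and each culture pooled the brains of several mice. The ATAC-seq groups had the same genotypes, with 2 acute EC, 6 WT cultured (replicates 1 and 2 C57BL/6J and method A, 3 to 6 flex3 and method B) and 2 stabilized libraries (both method B).

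Iron enters the brain across the capillary wall. Transferrin-bound iron is taken up by receptor endocytosis, reduced in the endosome by STEAP3, carried into the cytosol by DMT1 (Slc11a2), stored in ferritin shells of heavy (Fth1) and light (Ftl1) chains, and exported through ferroportin (Slc40a1) with the help of the ferroxidase hephaestin (Heph). Zinc moves into the cytosol through ZIP transporters such as ZIP8 (Slc39a8) and ZIP10 (Slc39a10), of which ZIP8 also carries other divalent metals, and it leaves through ZNT1 (Slc30a1). Ferritin and ferroportin transcripts hold iron-responsive elements (IREs), hairpins through which iron regulatory proteins act on translation or on transcript stability.

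The libraries held 24284843 to 94686456 estimated counts. The summed TPM of 6 endothelial markers was 2648 to 2823 in the acute ECs, 6.10 to 18.2 in the GFP-negative cells, 688 to 1908 in WT cultures and 910 to 3233 in stabilized cultures. Acute libraries were sequenced as single reads of 75 cycles and cultures as paired reads, so that read format and culture cannot be told apart in any comparison of the 2 kinds. The acute ECs also held transcripts of other cells. The summed TPM of 5 pericyte markers was 501 to 523 in acute ECs and 2.35 to 5.18 in WT cultures. For 5 erythrocyte genes it was 5448 in acute replicate 1 and 41099 in acute replicate 2, against 0 to 1.39 in WT cultures, where Hbb-bt and Alas2 were at 0 in every library. Summed TPM of 4 smooth muscle markers went the other way, at 214 to 233 in acute ECs and 501 to 3068 in WT cultures. It was 3585 to 5266 in GFP-negative cells and 461 to 2561 in stabilized cultures. Within this sum Myh11 was lower in culture, at 25.0 and 19.7 TPM in acute ECs and 0.502 to 3.11 TPM in WT cultures. Mitochondrial genes took 10.6% to 11.2% of the counts in acute ECs, 14.9% to 24.2% in GFP-negative cells and 0.667% to 2.58% in cultures. In bulk samples, fewer cells of a type and less RNA per cell cannot be told apart.

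A gene was called in a comparison when its edgeR adjusted p was under 0.05, it differed more than 2-fold, and each library of the higher group held 5 TPM or more. Values of a gene between libraries are given as CPM, the count relative to library size, scaled by the TMM method over all 14 libraries. All 9 genes passed the filter on low counts in all 4 comparisons.

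The acutely isolated ECs were first set against the GFP-negative cells, which asks where in the brain these genes are expressed. Of the 9 genes, 5 were called higher in ECs and 0 lower, while 8.3% of the 15101 genes tested were called higher and 7.56% lower. The 5 were the exporters and importers Slc40a1, Slc30a1, Slc39a8 and Slc39a10 and the reductase gene Steap3. The median log2 difference over all genes tested was -0.06.

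Ferroportin, the iron exporter (Slc40a1, chr1:45908068-45926523, minus strand, GRCm38), stood at 756 and 527 CPM in the 2 acute EC libraries and at 8.79 and 7.90 CPM in the 2 GFP-negative libraries. The groups were far apart (log2 difference 6.28 ± 0.41 SE, adjusted p = 0.00165, edgeR). The erythrocyte genes summed to 1368 and 15185 TPM in the GFP-negative libraries, and their part in the Slc40a1 values was not tested.

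ZIP10, a zinc importer of the plasma membrane (Slc39a10, chr1:46807544-46892852, minus strand), was at 3322 and 2335 CPM in acute ECs and at 56.2 and 45.2 CPM in GFP-negative cells, a log2 fold change of 5.82 ± 0.43 (adjusted p = 0.00165, edgeR). ZIP8 (Slc39a8, chr3:135825279-135888572, plus strand) was at 372 and 368 CPM against 3.76 and 10.0 CPM, and its log2 fold change was 5.76 ± 0.60 (adjusted p = 0.00239, edgeR). The zinc exporter ZNT1 (Slc30a1, chr1:191906767-191913247, plus strand) was at 1238 and 967 CPM against 52.9 and 61.6 CPM, with a log2 fold change of 4.29 ± 0.36 (adjusted p = 0.00174, edgeR). For all 3 zinc transporters the lowest acute EC library lay above the highest GFP-negative one, as it did for 30.4% of all genes tested.

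Steap3, the endosomal ferrireductase gene (chr1:120190757-120272705, minus strand), was much less abundant, at 43.3 and 20.1 CPM in acute ECs and 6.55 and 4.78 CPM in GFP-negative cells. Its log2 fold change was 2.51 ± 0.63 (adjusted p = 0.0304, edgeR). The call was kept without acute EC replicate 2 (2.96, adjusted p = 0.0147), but it was lost without acute EC replicate 1 (1.72, adjusted p = 0.102), without GFP-negative replicate 1 (2.75, adjusted p = 0.0926) and without GFP-negative replicate 2 (2.30, adjusted p = 0.157), and also in limma on log2(TPM + 0.1) (2.51, adjusted p = 0.0597).

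The other 4 genes were not called between ECs and GFP-negative cells. Ferritin heavy chain (Fth1, chr19:9980598-9985098, plus strand) had overlapping values, at 924 and 765 CPM in ECs and 955 and 588 CPM in GFP-negative cells (log2 0.15 ± 0.36, adjusted p = 0.793, edgeR), and its sign changed when counts were scaled by library size alone (-0.23). Ferritin light chain (Ftl1, chr7:45457944-45459884, minus strand) was at 392 and 317 CPM against 130 and 202 CPM (log2 1.11 ± 0.35, adjusted p = 0.059, edgeR). Ftl1 has 7 other genes in the annotation with at least 90% identity to it over 200 bases or more, and these took 0.644% and 21.9% of the counts of the whole family in the 2 EC libraries and 19.3% to 24.3% in the GFP-negative ones, so its level in acute cells is uncertain. In cultures the same genes took 0.402% to 0.846%. Hephaestin (Heph, chrX:96455359-96574485, plus strand) was at 17.5 and 27.3 CPM against 13.4 and 9.39 CPM, and DMT1 (Slc11a2, chr15:100387898-100425072, minus strand) at 52.1 and 18.2 CPM against 10.9 and 23.3 CPM. In CPM, Heph values did not overlap, as for 30.4% of all genes tested, and Slc11a2 values did. In TPM, Heph overlapped too, at 1.26 and 3.16 in ECs against 1.29 and 1.24 in GFP-negative cells. The log2 fold changes were 0.99 ± 0.56 for Heph and 1.07 ± 0.70 for Slc11a2, with edgeR adjusted p-values of 0.237 and 0.306.

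**Figure D1:**
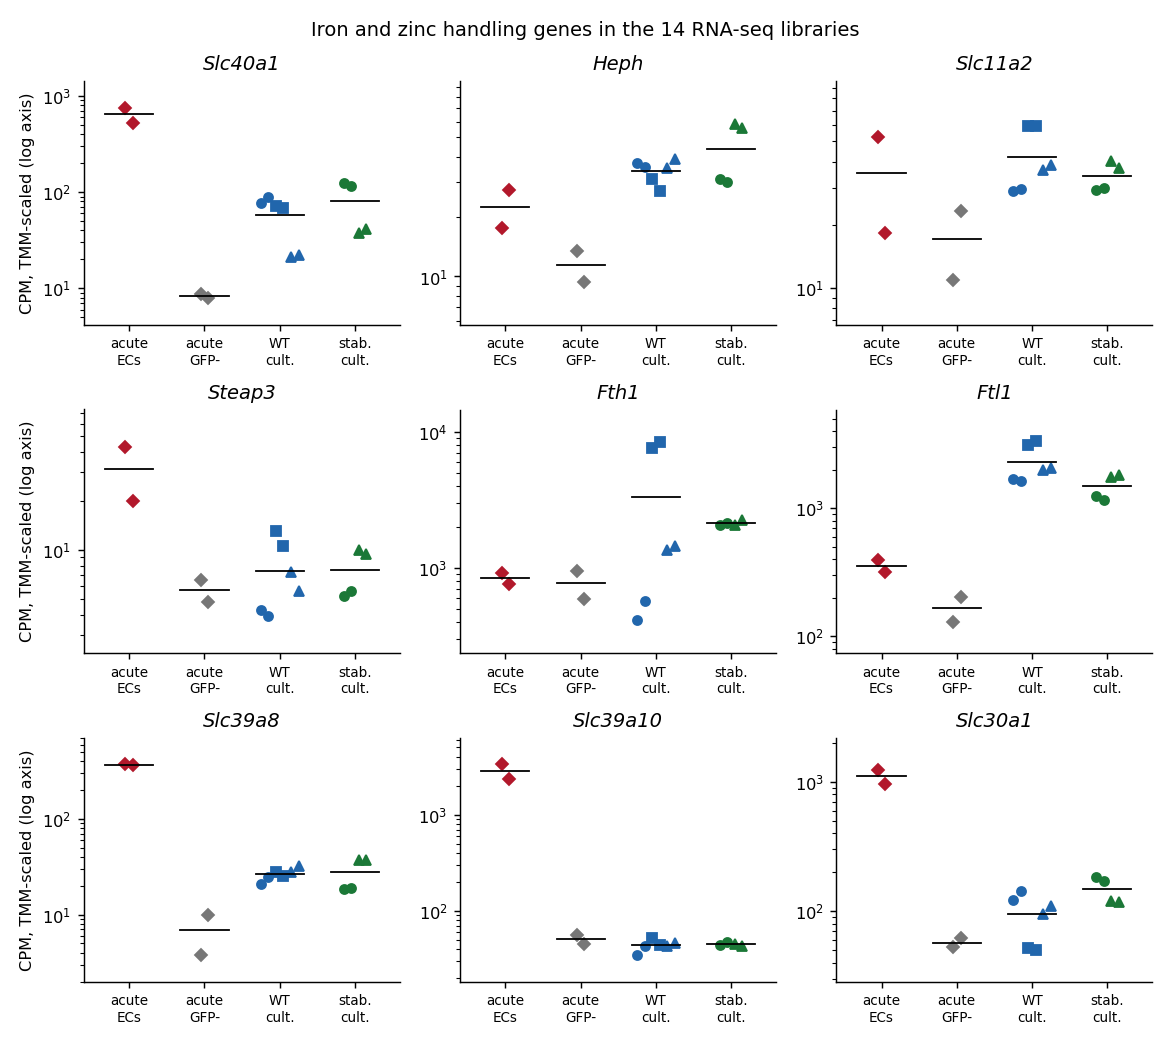
CPM (TMM-scaled, log axes) of each gene in the 14 libraries. Diamonds are acute libraries, circles method A cultures, squares the 150-cycle method B cultures and triangles the 36-cycle method B cultures, and bars are group means. For Slc40a1, Slc39a8, Slc39a10 and Slc30a1 both acute EC libraries lie above every other library, whereas for Ftl1 the 10 cultures lie above the acute libraries.

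Culture was then set against acute isolation. In the 6 WT cultures, 1 of the 9 genes was called higher than in acute ECs, where 13.5% of the 13785 genes tested were, and 5 were called lower, where 10.2% were. The genes called lower were Slc40a1, Slc39a8, Slc39a10, Slc30a1 and Steap3, the same 5 that had been called higher in ECs above. Both comparisons use the same 2 acute EC libraries, so they are not independent. The test counts the 2 wells of each culture experiment as separate libraries, so its SEs and p-values may be too small. The same holds for the stabilized cultures below. The gene called higher was Ftl1. The median log2 difference over all genes tested was 0.10, and it was 0.30 with library size scaling and 0.55 in limma on log2(TPM + 1), against which the values below can be read.

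Slc39a10 fell most. It was at 34.7 CPM in the lowest WT culture, 43.5 in the median and 51.9 in the highest, against 2335 and 3322 CPM in acute ECs. The change was 64.9-fold (log2 -6.02 ± 0.29, adjusted p = 1.33e-05, edgeR), and the log2 value stayed between -6.43 and -5.67 in all 24 alternatives tried. On protein-coding transcripts of at least 700 bases alone, the ratio of mean TPM was smaller, at 14.7. The cultures were close to the 45.2 and 56.2 CPM of the GFP-negative cells.

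Slc39a8 ranged from 20.8 to 32.6 CPM in WT cultures with a median of 26.6 CPM, and the log2 change from acute ECs was -3.80 ± 0.24 (adjusted p = 2.79e-05, edgeR). Slc30a1 ranged from 50.2 to 144 CPM with a median of 102 CPM, and its drop was 11.6-fold (log2 -3.54 ± 0.41, adjusted p = 0.000367, edgeR). Importers and exporter of zinc thus moved in the same direction, and in each case no WT culture reached an acute EC library, as for 27.1% of all genes tested.

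Slc40a1 ranged from 21.1 to 89.0 CPM with a median of 69.4 CPM, an 11.1-fold drop (log2 -3.47 ± 0.53, adjusted p = 0.00118, edgeR). The low end was the 36-cycle method B experiment, at 21.1 and 22.1 CPM, and the other 4 WT cultures were at 67.9 to 89.0 CPM. Every WT culture remained above the GFP-negative cells. Steap3 ranged from 3.92 to 13.1 CPM with a median of 6.48 CPM, a 4.26-fold drop (log2 -2.09 ± 0.49, adjusted p = 0.00853, edgeR). Its 2 highest cultures were the 150-cycle wells, at 13.1 and 10.6 CPM. The Steap3 call was lost without acute EC replicate 1 (log2 -1.43, adjusted p = 0.119), in the 150-cycle experiment alone (log2 -1.43, adjusted p = 0.054) and in limma on log2(TPM + 1) (log2 -1.05, adjusted p = 0.249), and its TPM values overlapped between the groups.

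The part of the pericyte, erythrocyte, smooth muscle and mitochondrial transcripts in these changes was not tested. Pericyte markers stood at 334 to 659 TPM in the GFP-negative cells. There Slc40a1 was at 8.79 and 7.90 CPM, Slc39a8 at 3.76 and 10.0 CPM and Steap3 at 6.55 and 4.78 CPM. Slc39a10 was at 56.2 and 45.2 CPM and Slc30a1 at 52.9 and 61.6 CPM in the same cells.

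Ftl1 was higher in every WT culture, as 29.4% of all genes tested were, at 1637 CPM in the lowest, 2013 in the median and 3346 in the highest, against 317 and 392 CPM in acute ECs. The rise was 6.46-fold (log2 2.69 ± 0.48, adjusted p = 0.0023, edgeR). Its partner Fth1 had no common direction. The method A wells were at 412 and 576 CPM, below the 765 and 924 CPM of the acute ECs, whereas the 36-cycle method B wells were at 1360 and 1457 CPM and the 150-cycle wells at 7638 and 8396 CPM. The pooled log2 difference was 1.96 with an SE of 1.26 (adjusted p = 0.232, edgeR). Taken by experiment, it was -0.78 in method A (adjusted p = 0.0653), 0.74 in method B at 36 cycles (adjusted p = 0.0318) and 3.24 in the 150-cycle experiment (adjusted p = 0.00161).

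Heph was at 26.9 to 38.8 CPM in WT cultures with a median of 35.3 CPM, against 17.5 and 27.3 CPM in acute ECs, and the groups overlapped slightly (log2 0.60 ± 0.29, adjusted p = 0.118, edgeR). In TPM the Heph groups did not overlap, at 4.79 to 9.12 in WT cultures against 1.26 and 3.16 in acute ECs. TPM was also rescaled to the sum of the protein-coding genes outside the mitochondrial and hemoglobin genes. In this rescaled TPM the Heph groups overlapped, at 8.01 to 14.7 in WT cultures against 3.96 and 8.66 in acute ECs. Slc11a2 was at 29.0 to 59.3 CPM with a median of 37.5 CPM, within the range of 18.2 to 52.1 CPM of the acute ECs except for the 150-cycle wells (log2 0.25 ± 0.47, adjusted p = 0.686, edgeR). The call for Slc11a2 depended on the unit. With an offset for transcript length it was called higher in culture (log2 1.92, adjusted p = 0.0132), and so it was in limma on log2(TPM + 1) (log2 2.21, adjusted p = 0.0246), while without acute EC replicate 2 the count-based value was -0.34 (adjusted p = 0.616).

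**Figure D2:**
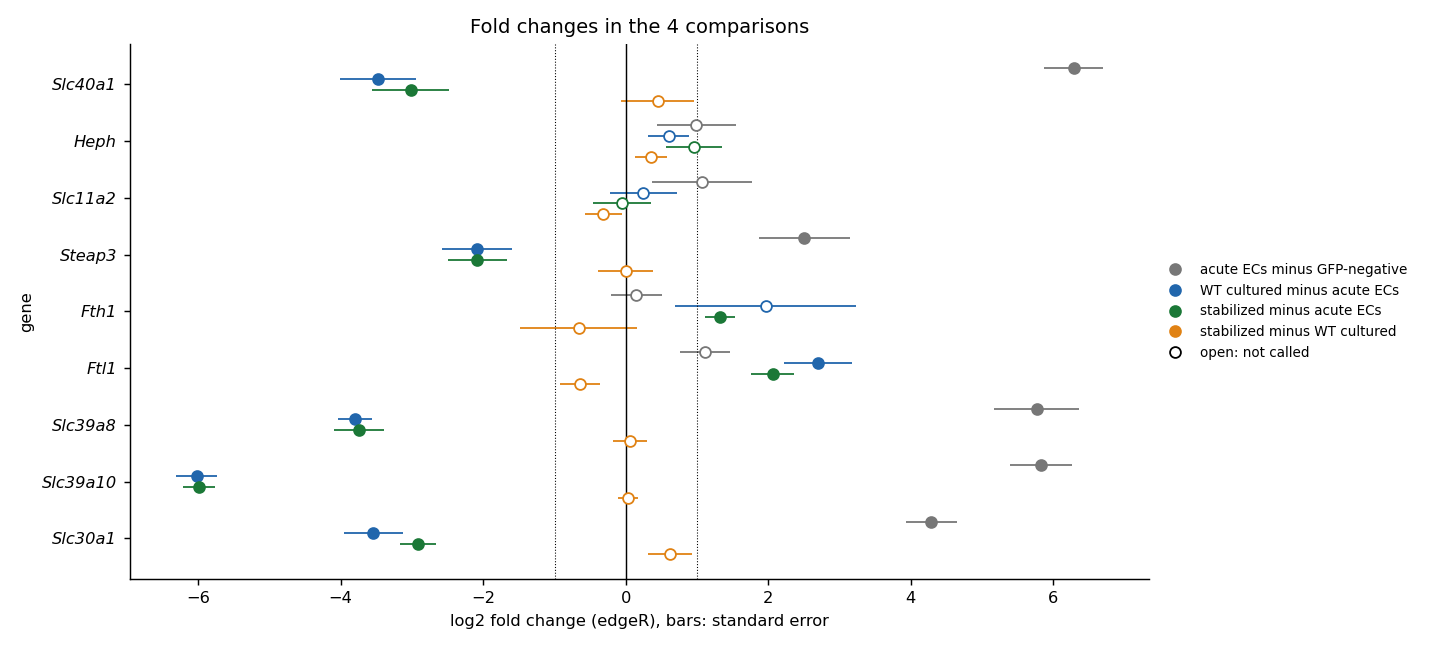
Log2 fold changes with standard errors (edgeR) for each gene in 4 comparisons. Filled points were called and open points were not, and dotted lines mark a 2-fold change. Slc40a1, Steap3, Slc39a8, Slc39a10 and Slc30a1 lie to the right for acute ECs against GFP-negative cells and to the left for each culture group against acute ECs.

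The stabilized cultures were compared with the same 2 acute EC libraries. Here 2 of the 9 genes were called higher, against 15.1% of the 13889 genes tested, and 5 lower, against 11.0%. The median log2 difference over all genes was 0.04. Slc39a10 was at 43.6, 44.2, 44.9 and 48.0 CPM in the 4 stabilized cultures (log2 -5.99 ± 0.23, adjusted p = 3.42e-05, edgeR). Slc39a8 was at 18.6, 19.02, 37.0 and 37.2 CPM (log2 -3.74 ± 0.35, adjusted p = 0.000361) and Slc30a1 at 118, 119, 170 and 183 CPM (log2 -2.92 ± 0.25, adjusted p = 0.000289, edgeR). All stabilized cultures were below the acute ECs for these 3 zinc transporters, as for 32.3% of all genes tested.

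Slc40a1 was at 126 and 116 CPM in the method A stabilized wells and 37.7 and 41.2 CPM in the method B wells, again below acute ECs (log2 -3.02 ± 0.54, adjusted p = 0.00386, edgeR). Steap3 was at 5.19, 5.56, 9.504 and 10.1 CPM (log2 -2.08 ± 0.41, adjusted p = 0.00569, edgeR). Ftl1 was called higher at 1249 and 1164 CPM (method A) and 1748 and 1810 CPM (method B), a log2 change of 2.06 ± 0.30 (adjusted p = 0.00166, edgeR). Fth1 was called higher as well, at 2086, 2138, 2056 and 2239 CPM (log2 1.32 ± 0.21, adjusted p = 0.00232, edgeR). For both chains every stabilized culture was above the acute ECs, as for 37.4% of all genes tested. The Fth1 call did not survive a correction for transcript length (log2 -0.17, adjusted p = 0.508) or the use of TPM (log2 0.40, adjusted p = 0.402). Heph, at 31.0, 30.0, 58.4 and 55.8 CPM, was not called (log2 0.96 ± 0.39, adjusted p = 0.0723, edgeR) but was in limma on log2(TPM + 1) (log2 1.53, adjusted p = 0.0175) and in method B alone (log2 1.31, adjusted p = 0.0301). Slc11a2, at 29.5, 30.1, 40.1 and 37.4 CPM, was not called (log2 -0.06 ± 0.41, adjusted p = 0.912, edgeR), and it was called higher with the length offset (log2 1.96, adjusted p = 0.0101).

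Stabilized and WT cultures were then set against each other, to ask whether beta-catenin stabilization changes these genes in culture. None of the 9 genes was called, and 0.0% of the 12959 genes tested were called in either direction by edgeR. At an unadjusted p under 0.05 there were 1344 genes, and DESeq2 called 14 genes higher and 3 lower, with none of the 9 among them. With the replicate number as a block, on replicates 1 to 4 of each group, 150 genes were called higher and 40 lower, and again none of the 9.

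The pooled log2 differences, stabilized minus WT, were 0.45 ± 0.51 for Slc40a1, 0.62 ± 0.31 for Slc30a1, 0.06 ± 0.24 for Slc39a8, 0.03 ± 0.14 for Slc39a10, 0.35 ± 0.22 for Heph, -0.31 ± 0.25 for Slc11a2 and 0.00 ± 0.39 for Steap3. The ferritin chains had -0.66 ± 0.83 for Fth1 and -0.64 ± 0.29 for Ftl1. The edgeR adjusted p-values ran from 0.477 for Ftl1 to 0.998 for Steap3. Among WT cultures the 150-cycle experiment had no stabilized counterpart and held the highest values of Fth1, Ftl1, Slc11a2 and Steap3 of all 10 cultures, so the values within an isolation method at 36 cycles were examined as well.

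Within method A, Fth1 was at 2086 and 2138 CPM in stabilized wells against 412 and 576 CPM in WT wells, and it was called higher (log2 2.06 ± 0.15, adjusted p = 0.000504, edgeR). Within method B it was at 2056 and 2239 CPM against 1360 and 1457 CPM, a smaller difference that stayed under the 2-fold threshold (log2 0.61 ± 0.06, adjusted p = 0.00198, edgeR). In CPM the 4 stabilized wells lay within a narrow band, while the WT wells of the 3 experiments did not overlap each other. In TPM the stabilized wells differed by method, at 3551 and 3830 in method A and 1804 and 1843 in method B. With isolation method as a term on the 8 libraries of 36 cycles, Fth1 was the only one of the 9 genes called (log2 1.33 ± 0.30, adjusted p = 0.0245, edgeR). In the same fit Slc40a1 (log2 0.68), Steap3 (0.47), Slc30a1 (0.29) and Ftl1 (-0.35) had edgeR adjusted p-values of 0.00653, 0.0432, 0.0425 and 0.0376 at less than a 2-fold change. The direction for Fth1 is opposite to the pooled one. The WT wells of method A are C57BL/6J and those of method B carry the flex3 allele, so genotype background and method cannot be told apart in the WT cultures.

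Ftl1 was lower in stabilized than in WT wells in each method, at 1249 and 1164 against 1697 and 1637 CPM in method A and at 1748 and 1810 against 1981 and 2045 CPM in method B. Fth1 and Ftl1, which form the same protein shell, thus differed in sign within both methods on the CPM scale. In TPM, Ftl1 in method A was instead higher in stabilized wells (1829 and 1902) than in WT wells (1398 and 1756). In the rescaled TPM it was lower again, at 3052 and 3008 against 3952 and 3833. Slc40a1 was higher in stabilized wells in each method, at 126 and 116 against 77.0 and 89.0 CPM in method A and at 37.7 and 41.2 against 21.1 and 22.1 CPM in method B. Slc30a1 was likewise higher, at 183 and 170 against 122 and 144 CPM and at 119 and 118 against 94.4 and 109 CPM. In TPM its method B values overlapped, at 21.2 and 19.8 against 17.4 and 20.1. Heph moved in opposite directions, at 31.0 and 30.0 against 37.1 and 35.3 CPM in method A and at 58.4 and 55.8 against 35.2 and 38.8 CPM in method B. None of these 4 genes reached a 2-fold change within a method in the count-based fits. Replicates are wells of 1 experiment here, so p-values measure the spread between wells and not between experiments.

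**Figure D3:**
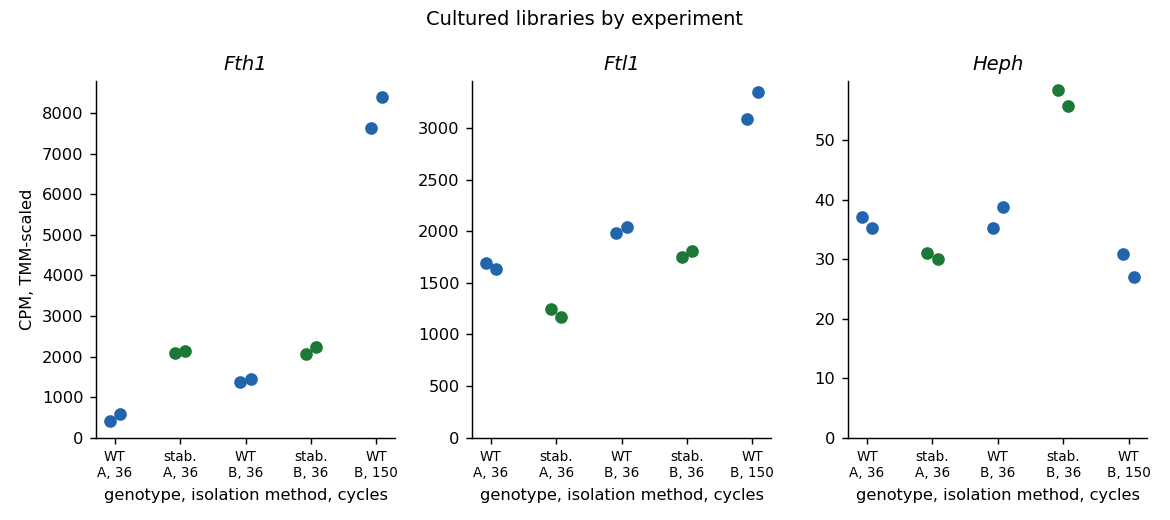
CPM (TMM-scaled, linear axes from 0) of Fth1, Ftl1 and Heph in the 10 cultured libraries by experiment, blue for WT and green for stabilized, with isolation method and read cycles below. Each point is a well. The 2 wells of an experiment lie close together, and the 150-cycle WT experiment holds Fth1 values of 7638 and 8396 CPM.

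The levels of different genes were compared per length, as TPM. In the acute ECs the order by mean TPM was Fth1 (1976), Slc39a10 (498), Slc40a1 (320), Ftl1 (276), Slc30a1 (221), Slc39a8 (48.2), Steap3 (7.09), Slc11a2 (2.34) and Heph (2.21). The TPM ranges of Slc39a10 (394 to 603) and Slc40a1 (189 to 451) overlapped, and so did those of Slc40a1 and Ftl1 (251 to 301), Ftl1 and Slc30a1 (170 to 271), and Slc11a2 and Heph. The other neighbours in that order did not overlap. In WT cultures, whose experiments differed widely, the order by median TPM was Ftl1 (1778), Fth1 (1294), Slc40a1 (22.1), Slc30a1 (19.4), Slc11a2 (11.7), Slc39a8 (8.03), Slc39a10 (7.53), Heph (5.97) and Steap3 (1.72). Ftl1 was above Fth1 in all wells except the 150-cycle ones, which put Fth1 first by mean TPM (6759 against 3837). Each neighbour overlapped the next in range except Fth1 (lowest 417) and Slc40a1 (highest 33.4). In stabilized cultures Fth1 (2757) and Ftl1 (1629) were again far above the transporters, of which Slc30a1 (37.6) and Slc40a1 (32.7) came first.

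For Slc40a1, Slc39a10, Slc30a1 and Fth1 the acute TPM values rested largely on short transcript models. For Slc39a8, Slc11a2, Heph and Steap3 at least 96.9% of the TPM in acute ECs was on coding transcripts of 700 bases or more, and for Ftl1 33.2% and 82.1%. The 263-base non-coding model Slc40a1-207 held 61.9% and 82.6% of the Slc40a1 TPM in acute ECs and 0% in all cultures. The 333-base Fth1-206 held 79.6% to 82.7% of Fth1, the 565-base Slc39a10-204 held 34.7% to 58.6% of Slc39a10 and the 677-base Slc30a1-202 held 54.0% to 67.5% of Slc30a1. On protein-coding transcripts of at least 700 bases alone, a restriction chosen after the data were seen, the acute ECs had 70.7 and 74.4 TPM of Slc40a1, 133 and 135 of Slc39a10, 78.4 and 88.1 of Slc30a1 and 297 and 398 of Fth1. On this scale too the first 3 genes were above all WT cultures, whose highest values were 32.2, 16.0 and 30.2 TPM, while Fth1 was below all of them (lowest 403 TPM). The ratios of mean TPM between acute ECs and WT cultures were 3.81 for Slc40a1, 4.58 for Slc39a8 and 4.09 for Slc30a1 on this scale, less than the count-based folds. Those to stabilized cultures were 2.31, 5.63 and 2.21. For Slc39a8 the restriction did not lower the ratio. On all transcripts its TPM ratio was 4.49 to WT cultures and 5.48 to stabilized cultures, so its gap to the count-based fold lies between TPM and counts. The split of reads between such models is an estimate of the authors' quantification.

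**Figure D4:**
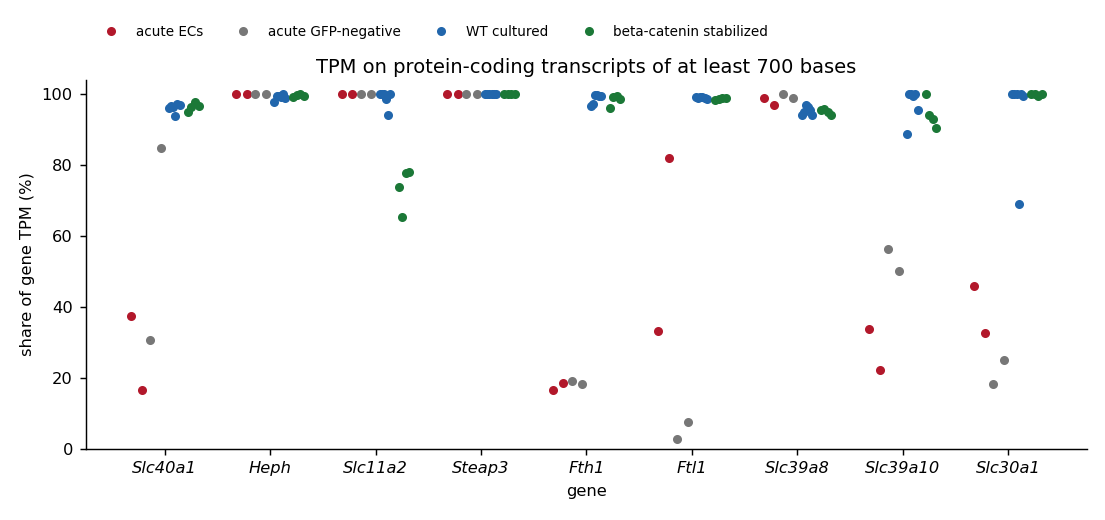
Share of each gene's TPM (percent) on protein-coding transcripts of at least 700 bases, a point per library. For Fth1 the acute libraries lie between 16.5% and 19.2% and the cultures at 96.3% or above, whereas for Heph and Steap3 every library lies above 97%.

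The IRE of the ferritin and ferroportin transcripts is shown because it is the feature these iron genes share. A search of all GENCODE M21 transcripts looked for a bulged C, 5 paired bases above it, a loop of CAGTG followed by any base but G, and at least 4 of 5 paired bases below, with G to U pairs allowed. It found a match in 0.107% of the 22527 genes with a coding transcript. Among the 9 genes it matched Fth1, Ftl1 and Slc40a1, in each case in the 5′ UTR of the main coding transcript. Hairpins of another shape, such as one with an unpaired base in the upper stem, would be missed. The lack of a match in Slc11a2 or another gene therefore does not show that it has no IRE. The loop is in capitals.
Fth1-201, bases 88 to 114: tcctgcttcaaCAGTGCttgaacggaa
Ftl1-201, bases 79 to 105: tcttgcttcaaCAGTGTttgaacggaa
Slc40a1-201, bases 91 to 117: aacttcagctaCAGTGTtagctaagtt

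Transcripts that hold the match carried 17.0% and 18.6% of the Fth1 TPM, 33.2% and 84.2% of the Ftl1 TPM and 17.3% and 37.9% of the Slc40a1 TPM in the 2 acute ECs. In WT cultures they carried at least 97.7%, 99.3% and 97.0%. This is the same split between short and full-length models as above, seen from the hairpin, and read format cannot be told apart from culture in it.

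Open chromatin was read at each gene and 20 kb on both sides. The authors' peaks of all 10 libraries (fold enrichment over 2 and -log10 q over 2) were merged into 125880 regions, of which 82 lay at the 9 genes. Of the 82, 2 had a peak in both acute libraries and in no WT culture, against 2.92% of all regions, and 5 had a peak in all 6 WT cultures and in neither acute library, against 8.11%. These shares are near the background. A further 10 had a peak in all 8. The libraries differed in peak number, with 37384 and 31779 peaks in acute ECs, 50395 and 33122 in WT replicates 1 and 2, 84523 to 98732 in WT replicates 3 to 6 and 80034 and 79116 in stabilized cultures. The part of this difference in the classes was not tested.

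Start sites had peaks in both states. In 8 of the 9 genes, a peak within 1 kb of a start site was present in both acute, all 6 WT cultured and both stabilized libraries. The share of all genes with such peaks was not computed, so this count does not set the 9 apart. At Slc39a10, whose transcripts fell most, the highest promoter peak had a fold enrichment of 14.2 and 12.9 in acute ECs and of 7.80 to 10.1 in WT cultures with a median of 8.79 (exact two-sided permutation test, p = 0.0714, the smallest that 2 against 6 libraries can give). The Fth1 promoter had 18.6 and 18.04 in acute ECs and 9.76 to 15.7 in WT cultures (median 12.4, exact permutation p = 0.0714). For both genes the acute libraries lay above all WT cultures, and the share of all promoters that do so was not computed. At Slc40a1 the values overlapped, with 15.5 and 14.5 against 10.8 to 15.9 (exact permutation p = 0.286). The Slc30a1 promoter, with 9.23 and 9.61 against 9.58 to 12.4, overlapped between the groups (exact permutation p = 0.143). At Heph a promoter peak was found in acute replicate 1 and in WT replicates 3 to 6, and not in WT replicates 1 and 2, which differ from them in genotype, isolation method and number of peaks.

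The Slc30a1 promoter is shown because it held the most metal response element matches among the searched promoters of the 9 genes. These elements, the sites of the zinc sensor MTF-1, were searched as TGCACNC and, in a second pass, as TGCGCNC on both strands. Of 32851 RefSeq promoters (300 bases, GRCm38.p6), 25.7% hold a match and 7.11% hold 2 or more. Promoters of 6 of the 9 genes were in that table, and Slc30a1 had 2 matches, of which capitals mark the 1 upstream of the start site (on the minus strand). Slc39a8 had 1 match in 1 of its 2 promoters, and Slc39a10, Fth1, Ftl1 and Steap3 had 0. The window is chr1:191906531-191906780, plus strand.
Slc30a1 promoter: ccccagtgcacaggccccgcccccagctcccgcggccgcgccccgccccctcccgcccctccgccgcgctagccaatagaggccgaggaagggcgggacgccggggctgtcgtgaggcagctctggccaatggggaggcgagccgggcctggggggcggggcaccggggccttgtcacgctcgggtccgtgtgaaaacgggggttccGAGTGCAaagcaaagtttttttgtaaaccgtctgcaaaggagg

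The 2 regions with a peak in acute ECs alone belonged to zinc transporters. A region 25262 bases downstream of the Slc30a1 start site (chr1:191932223-191932814, outside protein-coding genes) had fold enrichments of 11.4 and 5.64 in acute ECs and no peak in any culture. The other lay 15611 bases upstream of the nearest GENCODE coding start site of Slc39a10 (chr1:46908323-46908603), with 2.72 and 3.54. A RefSeq promoter of Slc39a10 lies further upstream (chr1:46925727-46926026, minus strand), so the region is downstream of that start site. The count of such regions was 7 when acute replicate 2 was left out. TCF/LEF factors, the partners of beta-catenin, bind sites with CTTTGA, which was searched on both strands in the 300 bases around the summit. Of the 3671 regions with acute peaks alone, 39.4% hold it, against 18.4% of the 10207 regions with culture peaks alone. The Slc30a1 region holds 3 matches, in capitals (chr1:191932288-191932587, plus strand), and the Slc39a10 region holds 0.
Slc30a1 downstream region: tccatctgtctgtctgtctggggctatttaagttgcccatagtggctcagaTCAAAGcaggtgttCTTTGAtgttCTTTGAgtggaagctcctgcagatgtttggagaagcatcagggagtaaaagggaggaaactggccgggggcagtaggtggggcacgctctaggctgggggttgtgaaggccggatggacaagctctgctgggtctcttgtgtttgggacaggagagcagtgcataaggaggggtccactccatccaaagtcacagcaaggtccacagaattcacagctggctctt

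The 5 regions with a peak in cultures alone lay in introns of Slc11a2, Heph and Steap3 (2 regions) and 5545 bases upstream of Fth1. The Fth1 region (chr19:9974723-9975383) had fold enrichments of 14.5 to 21.4 in WT and 19.1 and 18.8 in stabilized cultures. The Steap3 region 67807 bases from the start site (chr1:120197150-120197747) had 8.33 to 21.9 in WT and 14.04 and 15.3 in stabilized cultures, although Steap3 transcripts were lower in culture. The Heph region 45062 bases into the gene (chrX:96501026-96501879) had 5.92 and 6.46 in WT replicates 1 and 2, 15.8 to 17.9 in WT replicates 3 to 6 and 15.8 and 13.5 in stabilized cultures. WT replicates 1 and 2 also had the lowest values of the 6 at the Fth1 region and at both Steap3 regions. The Slc11a2 region (chr15:100420991-100421582) was weaker, at 4.03 to 7.47 and at 4.90 and 5.29. Without WT replicate 2 the count of such regions was 8. AP-1 sites, searched as TGANTCA on both strands, are found in 52.5% of all regions with culture peaks alone and in 5.94% of those with acute peaks alone, and 3 of the 5 regions here hold one. They are the Slc11a2 and the 2 Steap3 regions, of which 2 are shown with the AP-1 match in capitals (plus strand). The Steap3 stretch also holds 1 CTTTGA match, left in lower case.
Slc11a2 intron, chr15:100421239-100421538: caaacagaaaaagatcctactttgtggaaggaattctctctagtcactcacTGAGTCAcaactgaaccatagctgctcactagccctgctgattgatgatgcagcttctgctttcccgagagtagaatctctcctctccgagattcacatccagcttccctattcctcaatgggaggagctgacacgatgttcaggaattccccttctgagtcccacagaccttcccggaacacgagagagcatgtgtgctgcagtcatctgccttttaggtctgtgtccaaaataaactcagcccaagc
Steap3 intron, chr1:120197225-120197524: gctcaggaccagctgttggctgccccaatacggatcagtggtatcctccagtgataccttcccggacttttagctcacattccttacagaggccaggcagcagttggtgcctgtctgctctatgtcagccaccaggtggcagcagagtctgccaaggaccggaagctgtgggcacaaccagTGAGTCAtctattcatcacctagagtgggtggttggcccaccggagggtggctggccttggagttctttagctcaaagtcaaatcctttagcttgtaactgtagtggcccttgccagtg

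**Figure D5:**
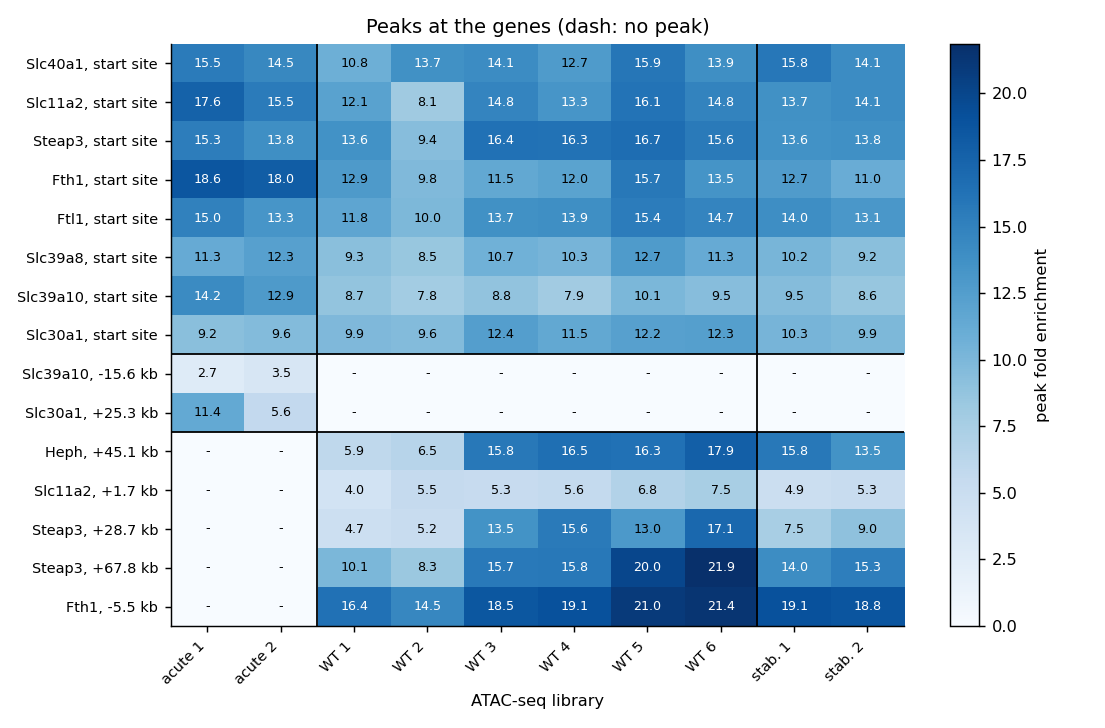
Peak fold enrichment (color and number) in the 10 ATAC-seq libraries at start sites with a peak in all 8 acute and WT libraries (top), at regions with peaks in acute ECs alone (middle) and in cultures alone (bottom). Distances are from the nearest GENCODE coding start site of the named gene. The start site rows are filled in every library, while the lower rows are empty either in all cultures or in both acute libraries.

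The neighbouring genes of iron and zinc metabolism were read from wider lists without the 9 genes. Of 41 iron genes tested between WT cultures and acute ECs, 7 were called higher and 6 lower, beside 13.5% and 10.2% of all genes, with a median log2 difference of 0.31 against 0.10 for all genes. Among the called genes, the largest rises were in Bmp2 (5.85 ± 1.09) and Bmp6 (4.32 ± 0.75), ligands that drive hepcidin in the liver. With them were the metal importer gene Slc39a14 (4.75 ± 0.62) and Hmox1 (4.71 ± 0.52), whose product frees iron from heme. Steap1 (9.38 ± 1.29) and Erfe (9.02 ± 1.64) rose more but were not called, at a mean of 2.22 and 0.598 TPM in WT cultures. Hmox1 was at 3.82 and 9.39 TPM in acute ECs and at 80.8 to 346 TPM in WT cultures. The largest called falls were in Flvcr2 (-4.50 ± 0.27), Epas1 (-3.65 ± 0.52, a hypoxia-inducible factor), Neo1 (-3.48 ± 0.39) and the transferrin receptor gene Tfrc (-2.20 ± 0.42). Tfrc was at 192 and 142 TPM in acute ECs, 31.3 and 11.0 in GFP-negative cells and 35.0 to 68.7 in WT cultures. Hepcidin itself (Hamp) was at 0 in both acute EC libraries and at no more than 0.045 TPM in WT cultures.

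Of 22 zinc genes tested, 6 were called higher in WT cultures and 0 lower, beside the same 13.5% and 10.2% of all genes, with a median of 0.53. This list leaves out Slc39a8, Slc39a10 and Slc30a1, which were called lower. Beside Slc39a14 they included the ZIP genes Slc39a11 (3.21 ± 0.48) and Slc39a3 (1.56 ± 0.30) and the ZNT gene Slc30a4 (1.82 ± 0.51). Slc30a4 was at 3.21 and 5.58 TPM in acute ECs and at 24.7 to 68.9 TPM in WT cultures.

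In acute ECs against GFP-negative cells, 6 of 42 iron genes were called higher and 2 lower, and 0 of 22 zinc genes higher and 5 lower, beside 8.3% and 7.56% of all genes. The 3 zinc transporters called higher in ECs are again outside the list. Flvcr2 (4.34 ± 0.43), Lcn2 (3.64 ± 0.91), Tfrc (3.24 ± 0.45) and Epas1 (3.09 ± 0.36) were higher in ECs, and the transferrin gene Trf (-5.68 ± 0.84) and Bmp6 (-3.73 ± 0.73) were lower. The zinc genes called lower in ECs were led by Slc39a12 (-7.77 ± 0.57) and the metallothionein gene Mt3 (-5.90 ± 1.01), followed by Slc39a6 (-2.73 ± 0.45), Mt2 (-1.57 ± 0.46) and Mt1 (-1.35 ± 0.38). The GFP-negative cells held 1172 to 3298 TPM of 5 astrocyte markers, against 4.27 to 22.2 TPM in ECs.

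In stabilized cultures against acute ECs, 6 of 40 iron genes were called higher and 7 lower, and 7 of 22 zinc genes higher and 0 lower, beside 15.1% and 11.0% of all genes and without the 3 zinc transporters called lower. The leading called genes were Bmp2 (5.38 ± 0.35), Hmox1 (5.13 ± 0.28), Bmp6 (4.87 ± 0.61) and Slc39a14 (4.62 ± 0.64) upward and Flvcr2 (-4.44 ± 0.22), Neo1 (-3.51 ± 0.29), Epas1 (-3.10 ± 0.33) and Pcbp2 (-2.15 ± 0.31) downward. Among the called zinc genes Slc39a11 (3.02 ± 0.26), Slc39a6 (1.92 ± 0.35) and Slc30a4 (1.74 ± 0.30) followed Slc39a14. None of the 39 iron and 20 zinc genes tested between stabilized and WT cultures was called.

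Finally, the genes whose log2(TPM + 1) followed each of the 9 most closely over the 14 libraries were listed, as a description, among 8748 genes with a mean TPM of at least 5. Slc39a8 was most like Slc2a1, the glucose transporter gene of brain ECs (r = 0.98), Itm2a and Bsg. Slc40a1 was most like Sp100, Foxq1 and Zfp366 (r = 0.97 to 0.99), Slc39a10 like Gkn3, Ccl21a and Bche (r = 0.97 to 0.98) and Slc30a1 like Ceacam1, Efr3b and Xdh (r = 0.959 to 0.965). Ftl1 was most like Yif1b, Tmem115 and Ppia (r = 0.995 to 0.997), Fth1 like Rab11b, Mbd3 and Zbtb7a (0.97 to 0.98), Slc11a2 like Arf1, Ugdh and Nagk (0.99) and Heph like Ppp1r37 (0.981) and Ikbkg (0.979). The libraries share read format and experiment within groups, which enters every such value. Steap3 was below the TPM minimum.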

How the data were processed

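RNA-seq reads had been quantified by the authors with Salmon 0.14.0 on GENCODE M21 transcripts. The deposited files hold, per transcript, an estimated count (not normalized), a TPM and an effective length in bases. ATAC-seq reads had been placed on GRCm38 by the authors (HISAT2 2.1.0), and peaks called in each library on its own (MACS2 2.1.2). Each deposited peak carries a score, a fold enrichment (ratio over local background), and −log10 p and −log10 q values. Stabilized RNA-seq replicate 4 is labelled with genomic DNA as its molecule but was used as RNA, as its title and protocol say. Cerebrum samples were not analysed here.

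Counts and TPM of 140198 transcripts were summed per gene, and counts were rounded. Tests used edgeR 4.0.16 in R 4.3.3 (filterByExpr, TMM, quasi-likelihood F test, Benjamini-Hochberg), each on its own 2 groups, with standard errors taken from the F statistic. Alternatives used DESeq2 1.42.0 and limma 3.58.1. Exact permutation tests used scipy 1.17.1. The 9 genes and the wider lists were chosen with earlier results of these data known. Of the wider lists, up to 4 called genes per direction with the largest fold change were named, together with Mt1 and Hamp, which were chosen after their values were seen, and for each of the 9 the 3 most alike genes, of which 1 is not reported here. The scripts were tested on simulated data. Counting error is small at these depths, so the spread between libraries sets the precision.

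Replicate numbers were checked for pairing. For stabilized against WT cultures the deviations of same-numbered libraries correlated at 0.31 to 0.37, and numbers 1 and 2 share method A and 3 and 4 method B. The number was used as a block in an alternative fit only, and the main test was unpaired. The highest correlations with another number were 0.29 to 0.37, about as high, so the numbers may mark method only, and WT replicates 3 and 4 differ in cycles from their stabilized partners. Elsewhere the correlations were -0.04 to 0.08. No replicates agreed within sampling noise.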

Additional observations from a re-analysis of the deposited data

Results flagged for a closer look

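The effect of stabilization on 5 of the 9 genes differed between isolation methods in an edgeR interaction test on the 8 cultured libraries of 36 cycles. In the same test 6622 of 13357 genes (49.6%) had an adjusted p under 0.05, so the share among the 9 is near that of all genes. The stabilized minus WT difference changed from method A to method B by -1.43 for Fth1 (2.05 in A and 0.62 in B, adjusted p = 0.00045), by 0.93 for Heph (-0.29 and 0.63, adjusted p = 0.000293), by 0.63 for Slc39a8 (-0.33 and 0.30, adjusted p = 0.00565), by 0.38 for Slc40a1 (0.49 and 0.88, adjusted p = 0.0241) and by 0.34 for Ftl1 (-0.51 and -0.17, adjusted p = 0.0128), all on the log2 scale. For Heph and Slc39a8 the sign differed. Each method was 1 experiment per genotype with 2 wells, and the WT cells of the methods differ in genotype, so method, experiment and WT genotype cannot be told apart. No library stood apart from its group by Dixon's criterion in the 27 sets of 4 to 6 values checked, but since cultures came as near-equal pairs of wells, that criterion could hardly flag a cultured library and says nothing of experiments that stand apart.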

How the results depend on the processing

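Slc40a1, Slc39a8, Slc39a10, Slc30a1 and Ftl1 kept direction and call in all 24 alternatives for WT cultures against acute ECs and in all 20 for stabilized cultures against acute ECs, and the first 4 in all 15 for ECs against GFP-negative cells. Not all of these could change a call. Dropping the TPM or the fold minimum only loosens the same fit. The unpaired fit on shared replicate numbers equals method A for cultures against acute ECs. For ECs against GFP-negative cells it equals the main fit. Without a TPM minimum, 3160 genes were called higher and 2825 lower in WT cultures, 3408 and 3210 in stabilized cultures against acute ECs, and 2978 lower in acute ECs against GFP-negative cells. The 150-cycle experiment alone gave 2867 higher. limma on log2(TPM + 1) and log2(TPM + 0.1) gave 928 and 929 lower in WT cultures (1823 and 1928 higher), 915 and 918 lower in stabilized cultures (2399 and 2446 higher), and 639 and 685 higher in acute ECs against GFP-negative cells (1092 and 1139 lower). Wells summed gave 833 lower in WT cultures, and the length offset 657 higher in ECs. Library size scaling gave 930 higher and 1419 lower in ECs. Leaving out a replicate gave 660 to 1662 higher in ECs. Of the 9 genes, 2 were called higher in WT cultures with the length offset, in both limma fits and in the 150-cycle experiment, and 1 in stabilized cultures against acute ECs in the fit of all 14 libraries. The cause of these changes was not tested.

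Between stabilized and WT cultures, DESeq2 called 14 genes higher and 3 lower, the replicate block 150 and 40, the same libraries unpaired (chosen after seeing the data) 162 and 51, the method term 66 and 10, method A alone 692 and 118, and method B at 36 cycles alone 138 and 37. The method term and method A each called 1 of the 9 genes (Fth1).

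The sign turned in these cases, in log2 units. For WT cultures against acute ECs, Slc11a2 was -0.080 with the replicate block, -0.28 on the same libraries unpaired and in method A, and -0.081 at 36 cycles (-0.34 to 1.20 leaving out a replicate), and Fth1 was -0.79 with the block and -0.78 unpaired and in method A. For ECs against GFP-negative cells, Fth1 was -0.23 with library size scaling (-0.15 to 0.54 leaving out a replicate), and Slc11a2 ran from -0.0088 to 1.72 leaving out a replicate. For stabilized against WT cultures, the replicate block gave -0.16 for Slc40a1, 0.081 for Fth1 and 0.035 for Steap3. The length offset gave 0.033 for Slc11a2, and the limma fits 0.022 and 0.038 for Slc11a2, -0.12 in both for Slc39a8 and 0.15 in both for Fth1. Library size scaling gave -0.034 for Slc39a8 and -0.052 for Slc39a10. The method term gave 0.010 for Slc11a2, -0.0090 for Slc39a8, 1.33 for Fth1 and 0.47 for Steap3, and without that term the values were 0.013 for Slc11a2, 1.15 for Fth1 and 0.49 for Steap3. Method A alone gave -0.31 for Slc39a8, -0.28 for Heph, 2.06 for Fth1 and 0.36 for Steap3, and method B 0.045 for Slc11a2, -0.012 for Slc39a10, 0.61 for Fth1 and 0.60 for Steap3. Steap3 was 0.022 without a filter and with wells summed and 0.019 in the fit of all 14 libraries. Leaving out a replicate gave -0.14 to 0.18 for Slc39a8, -0.036 to 0.066 for Slc39a10 and -0.20 to 0.21 for Steap3. For stabilized cultures against acute ECs, Slc11a2 was 0.13 with library size scaling, 1.96 with the length offset, 2.23 and 2.62 in limma, 0.0089 with wells summed and 0.10 in method B (-0.60 to 0.90 leaving out a replicate), and Fth1 was -0.17 with the length offset. The number of ATAC regions ran from 2 to 7 (acute alone) and from 5 to 8 (cultures alone) leaving out a replicate.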

Other observations

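The estimated make-up of 2 genes changed at the transcript level. For Slc39a8, the coding model Slc39a8-206 (3383 bases) held 74.4% to 89.4% of the TPM in acute ECs and 0% to 20.2% in WT cultures, where Slc39a8-201 (3203 bases) held 33.9% to 72.4%. For Slc11a2, Slc11a2-205 (4415 bases) held 67.0% to 89.5% in acute ECs and 15.4% to 38.4% in WT cultures, and Slc11a2-201 (3025 bases) held 10.5% to 33.0% and 46.1% to 80.2%. A retained-intron model of 709 bases, Slc11a2-206, was listed at 0 in all 6 WT cultures and in both acute EC libraries and at 2.26 to 5.98 TPM in the 4 stabilized cultures, or 20.4% to 30.7% of the gene. These shares were not tested, and they depend on how reads were divided between overlapping models.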
